A study of Mus musculus with 12 samples.

Results

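The IGF1 axis was examined through 9 genes in the lungs of 12 *miR-30a*-/- mice, taken by gene symbol from a count table of 55487 genes. The 9 are the ligand *Igf1*, its receptor *Igf1r*, the docking proteins *Irs1* and *Irs2*, and the binding proteins *Igfbp3*, *Igfbp4*, *Igfbp5*, *Igfbp6* and *Igfbp7*. RNA-Seq counted reads per gene in whole lungs of C57BL/6J pups, all lacking *miR-30a* through a CRISPR deletion, with no WT lung analysed here. Pups breathed 95% oxygen (FiO2) or room air from postnatal day (PND) 1 to PND 5 and were harvested on PND 21. The 4 groups were room air females (animals 2, 5 and 6), hyperoxia females (2, 4 and 5), room air males (1, 4 and 5) and hyperoxia males (1, 2 and 3), 3 lungs each. The methods state that pups of several litters were mixed and divided at random, so the p-values measure the spread between lungs.

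IGF1 is a secreted growth factor that binds the receptor tyrosine kinase IGF1R, which phosphorylates IRS1 and IRS2. These docking proteins recruit PI3K, which activates AKT and mTOR and keeps FOXO factors out of the nucleus. IGF binding proteins carry the ligand, hold it in the matrix or keep it from the receptor, and proteases release it again. In the lung, IGF1 is made largely by mesenchymal cells, and the axis is known for its part in the growth of alveoli and vessels, which oxygen exposure of the newborn lung disturbs.

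The microRNA absent from these mice belongs to a family with a common seed, the bases that pair with a target mRNA. The family includes miR-30a, miR-30b, miR-30c, miR-30d and miR-30e. Mature sequences of 3 members, from RefSeq (GRCm38.p6), are shown with the seed in capitals (bases 2 to 8). This stretch gave the match searched for in the 9 mRNAs, and shorter matches were not searched for.
miR-30a-5p: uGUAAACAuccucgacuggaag
miR-30c-5p: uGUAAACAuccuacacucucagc
miR-30e-5p: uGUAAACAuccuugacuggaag
The 3 share the seed GUAAACA, whose match in a target is TGTTTAC. In the longest annotated 3' untranslated region of each gene (GENCODE mouse release 21), read on the transcript strand, *Igf1r* and *Irs1* held 1 match each and the other 7 genes held 0. These sites, with the match in capitals, are receptor and docking sequences that a member of the family could pair with.
Igf1r, chr7:68232320-68232326 (+), position 5919 of 7267: tcttttttgacactTGTTTACt
Irs1, chr1:82237464-82237470 (-), position 156 of 4525: atccgttacagtttTGTTTACc
The longer match TGTTTACA was in none of the 9 regions. Among regions of similar length, TGTTTAC was present in 52.3% of 392 for *Igf1r* and in 37.9% of 1322 for *Irs1*, and in 13.8% of all 21037 genes with such a region. With no WT lung, the data do not show what the deletion did to either mRNA. Reads on *Mir30a* were 0 in all 12 libraries.

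Depth ran from 8763033 to 16741694 counts per lung, and the lowest count of any of the 9 genes in any lung was 149. The sexes matched *Xist* and *Ddx3y* in every library. The lungs carried the markers of the tissue (8120 to 22000 CPM, reads scaled to the size of the library, summed over 11 epithelial genes). A single gene, *Gm10800*, took 6.04% to 23.8% of the counts. The share of counts on 1474 olfactory and vomeronasal receptor genes, which the lung is not known to use in quantity, ran from 0.404% to 0.931% and is called the receptor share. It averaged 0.548% ± 0.166 (SD, n = 3) in room air females, 0.755% ± 0.0886 in hyperoxia females, 0.759% ± 0.127 in room air males and 0.717% ± 0.212 in hyperoxia males. Reads per kilobase of exon on these genes, taken as background, correspond to 0.596% of the reads of *Igfbp7* and 23.2% of those of *Igf1*, the lowest and highest shares among the 9. Background reached 43.8% of *Igf1* in 1 lung.

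To compare the genes with each other, CPM was divided by annotated exon length. *Igfbp7* stood highest at 192 CPM per kilobase (range 124 to 292 over the 12 lungs), and its lowest lung lay above the highest of *Igfbp5*, at 43.1 (29.7 to 83.8). Next came *Igfbp4* at 24 (15.9 to 33.1), *Igfbp6* at 19.4 (14.6 to 32.4), *Igfbp3* at 12.2 (7.58 to 17.03), *Irs2* at 12.02 (8.25 to 17.9), *Igf1r* at 10.4 (7.98 to 13.4), *Irs1* at 7.05 (4.82 to 9.15) and *Igf1* at 4.98 (3.52 to 8.14). From *Igfbp5* downwards, the ranges of neighbours in this order overlapped.

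**Figure D1:**
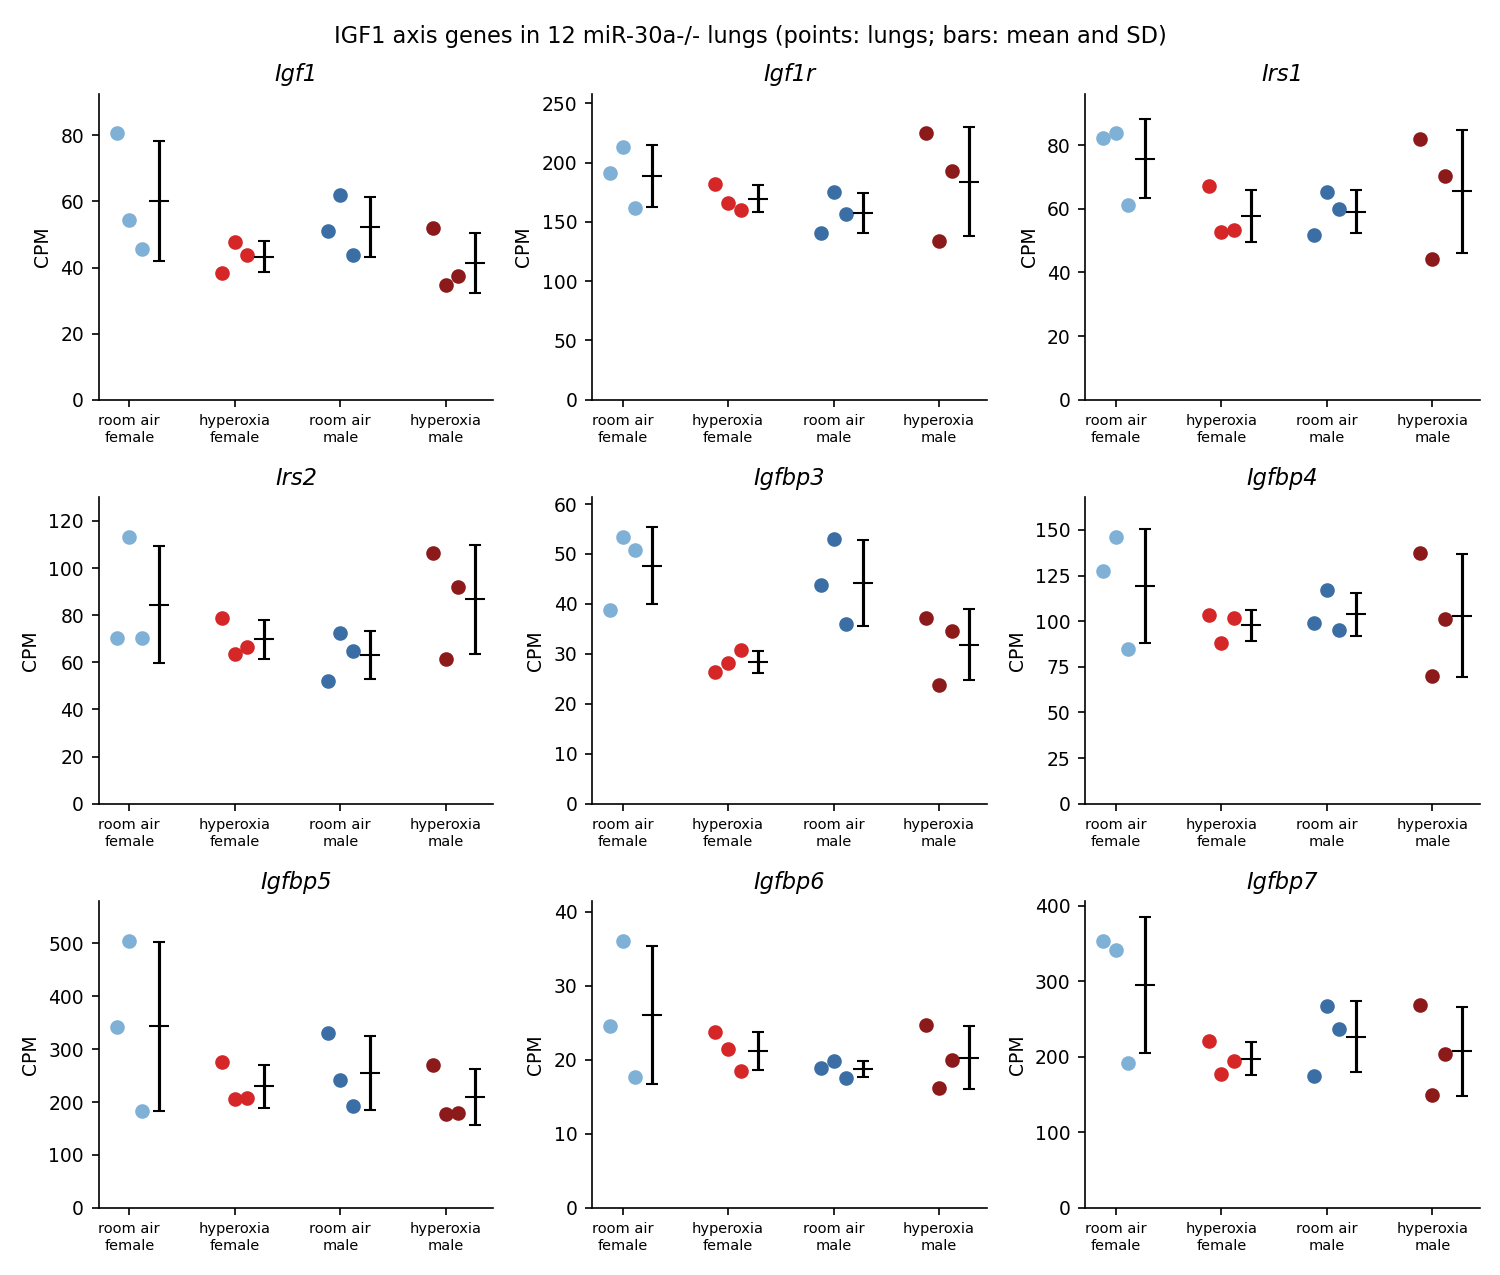
Level of each gene in CPM (vertical axis, from 0) in each lung, by sex and exposure, with the group mean and SD to the right of the points (3 lungs per group). In females, the hyperoxia lungs of *Igfbp3* lie at 26.4 to 30.7 CPM, below all room air lungs, while the other 8 genes overlap between exposures in both sexes.

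The first question was whether neonatal hyperoxia left a change in these genes on PND 21, with both sexes considered together. Calls required an adjusted p under 0.05 (edgeR quasi-likelihood test, Benjamini-Hochberg adjustment over the 45828 genes tested) together with a fold change over 1.5. Of the 9 genes, 0 were called, and 0.0415% of all genes tested were called (1 higher, 18 lower). At an unadjusted p under 0.05 stood 2 of the 9, *Igfbp3* and *Igf1*, both lower after hyperoxia, beside 2382 genes over the whole table. Of the 9, 7 had a negative log2 fold change, and the median of the 9 was -0.15, against 0.03 over all genes tested. With the receptor share as covariate, *Irs1*, *Igfbp4* and *Igfbp6* turned positive, at 0.02, 0.02 and 0.08.

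*Igfbp3*, which encodes the main carrier of IGF1 in blood and also acts in tissue, had the largest difference. In room air females it stood at 38.8, 53.3 and 50.9 CPM, and in hyperoxia females at 26.4, 28.1 and 30.7 CPM. In room air males it stood at 43.8, 53.0 and 35.9 CPM, and in hyperoxia males at 37.1, 23.7 and 34.6 CPM. All hyperoxia females lay below all room air females, and the male groups overlapped through 1 hyperoxia lung. The mean was 46.0 ± 7.56 CPM in room air and 30.1 ± 5.06 CPM in hyperoxia (SD, n = 6 each), a log2 fold change of -0.61 (SE 0.13) with an adjusted p of 0.0791 by edgeR and an unadjusted p of 5.9e-05 from the same fit. It ranked 34 of 45828 by p and missed the threshold in this model. DESeq2's Wald test called it (log2 fold change -0.65, adjusted p = 0.0273), as did the edgeR fit with 1 RUVr factor (adjusted p = 0.0363) and the fit without hyperoxia male 1 (-0.67, adjusted p = 0.0239). Over all 20 alternatives the log2 fold change lay between -0.67 and -0.52, the adjusted p between 0.0239 and 0.443, and 3 of them called the gene.

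*Igf1*, the ligand, was lower on average after hyperoxia in both sexes, with overlapping groups. In room air it stood at 80.6, 54.3 and 45.7 CPM in females and 51.1, 61.9 and 43.9 CPM in males. In hyperoxia it stood at 38.3, 47.6 and 43.8 CPM in females and 51.8, 34.8 and 37.4 CPM in males. Room air female 2 was the highest lung, and without it the female log2 fold change went from -0.48 to -0.21. The pooled log2 fold change was -0.41 (SE 0.14), with an adjusted p of 0.921 in edgeR, and it was -0.27 without room air female 2. *Igf1* was not called under any alternative in any comparison of exposures.

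The remaining binding proteins did not separate by exposure. *Igfbp5*, whose product binds the extracellular matrix, ran from 184 to 504 CPM in room air and from 178 to 276 CPM in hyperoxia. Its pooled log2 fold change was -0.43 (SE 0.22) and its adjusted p was 0.927 in edgeR. The value was -0.24 without room air female 5, its highest lung, and -0.25 with the receptor share as covariate. *Igfbp7*, which encodes a low-affinity IGF binder of vessel walls, ran from 175 to 353 CPM in room air and from 150 to 268 CPM in hyperoxia, with a log2 fold change of -0.35 (SE 0.19, adjusted p = 0.927 in edgeR). One RUVr factor brought its adjusted p to 3.51e-05 at a log2 fold change of -0.34, short of the fold required, while the receptor share as covariate brought the log2 fold change to -0.15 (adjusted p = 0.640 in edgeR). *Igfbp4*, an inhibitor of IGF action that the protease PAPP-A cleaves, had a log2 fold change of -0.15 (SE 0.17). *Igfbp6*, which prefers IGF2, had one of -0.09 (SE 0.13). With the receptor share as covariate, *Igfbp4* stood at 0.02 and *Igfbp6* at 0.08.

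The receptor and docking genes had small pooled differences in the 4-group model. *Igf1r* had 173 ± 26.2 CPM in room air and 177 ± 31.0 CPM in hyperoxia (SD, n = 6 each), a log2 fold change of 0.04 (SE 0.16). *Irs1* had a log2 fold change of -0.12 (SE 0.15), and *Irs2* of 0.09 (SE 0.16; 0.0068 to 0.23 with single lungs left out). With the receptor share as covariate, *Irs2* stood at 0.25 (unadjusted p = 0.000666, adjusted p = 0.114 in edgeR) and *Igf1r* at 0.15 (unadjusted p = 0.0237, adjusted p = 0.556), neither called. In that fit *Irs1* stood at 0.02, and *Igfbp3* at -0.55 (unadjusted p = 0.00165, adjusted p = 0.180). For *Igf1r* and *Irs1*, which held the miR-30 seed match, the differences in the 4-group model were smaller than their standard errors (unadjusted p = 0.832 and 0.416 in edgeR). For *Irs1*, 30.9% of exon bases overlap the opposite-strand gene *Gm9747*, and the counting's strand setting is not given in the sources used here, so its reads may be shared. The same holds for 7.03% of *Igfbp7* (with *Polr2b*) and 2.56% of *Irs2* (with *9530052E02Rik*).

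**Figure D2:**
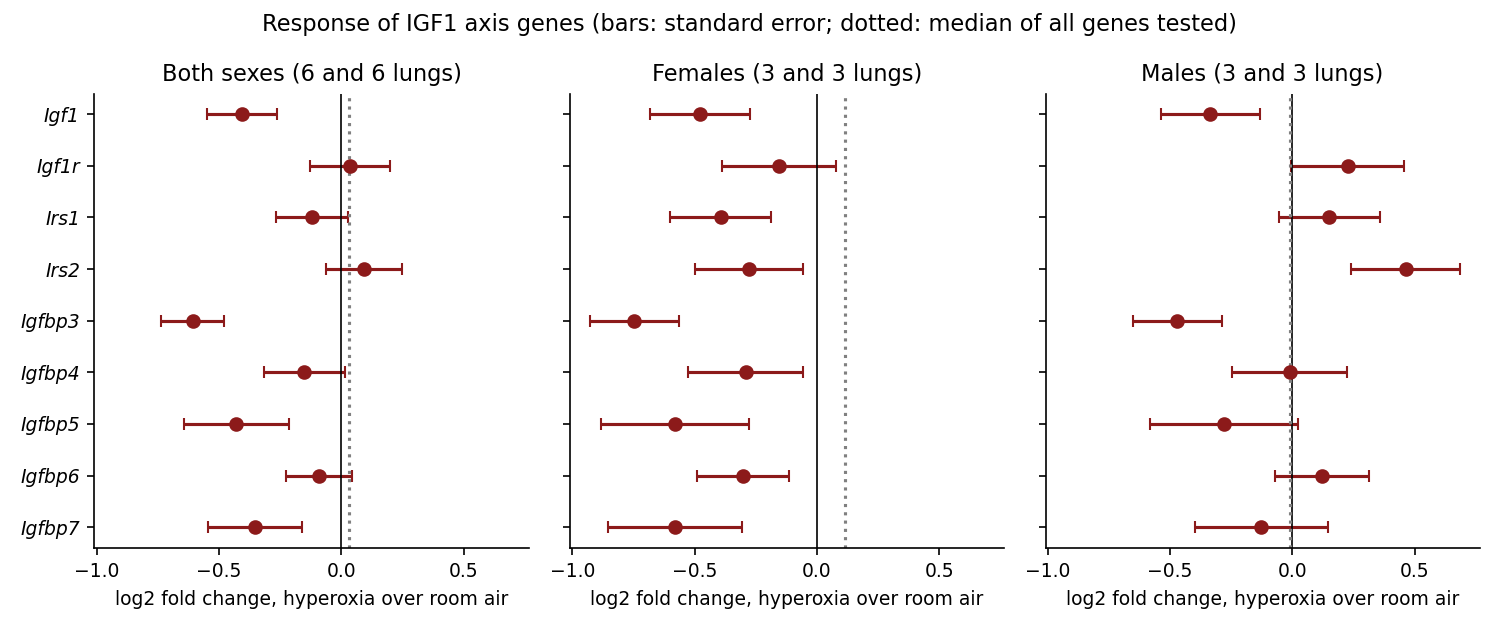
Log2 fold change of hyperoxia over room air (horizontal axis) for the 9 genes in both sexes, females and males, with standard errors and a dotted line at the median of all genes tested. *Igfbp3* lies at -0.61, -0.75 and -0.47, and in males *Irs2* lies at 0.46.

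In females, all 9 genes had a negative log2 fold change, from -0.75 to -0.16, with a median of -0.39, against a median of 0.11 over all genes tested. None was called, beside 1 of the 45828 genes tested (0.00218%). At an unadjusted p under 0.05 stood 3 of the 9, *Igfbp3*, *Igf1* and *Igfbp7*, beside 5775 genes over the table. *Igfbp3* had a mean of 47.7 ± 7.77 CPM in room air and 28.4 ± 2.15 CPM in hyperoxia (SD, n = 3 each), a log2 fold change of -0.75 (SE 0.18) and an adjusted p of 0.204 in edgeR. It was the 1 gene of the 9 whose female groups did not overlap, with hyperoxia lower, a pattern that 6.42% of all genes tested showed. DESeq2 called it (adjusted p = 0.0377), and so did edgeR with 1 RUVr factor (adjusted p = 0.0265), on the 6 female libraries alone (adjusted p = 0.0244) and without hyperoxia male 2 (adjusted p = 0.0445). These were 4 of 21 alternatives, over which the log2 fold change lay between -0.87 and -0.59 and the adjusted p between 0.0244 and 0.793. *Igf1* followed at -0.48 (SE 0.20, adjusted p = 0.368 in edgeR), *Igfbp7* at -0.58 (SE 0.27, adjusted p = 0.389) and *Igfbp5* at -0.58 (SE 0.30, adjusted p = 0.410). Single lungs moved the *Igfbp5* value, to -0.20 without room air female 5 and to -0.89 without room air female 6. With 1 RUVr factor the adjusted p passed 0.05 at a fold change under 1.5 for *Igfbp7* (log2 fold change -0.54, adjusted p = 1.24e-06 in edgeR), *Irs1* (0.000264), *Igfbp4* (0.0173) and *Irs2* (0.0311).

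The female values were set beside the receptor share. Room air females 2 and 5 had receptor shares of 0.510% and 0.404%, and *Igfbp7* stood there at 353 and 342 CPM, against 191 CPM in room air female 6 and 177 to 221 CPM in the hyperoxia females. *Igfbp5* stood at 342 and 504 CPM in those 2 lungs, against 184 CPM in room air female 6. Once that share entered the model as a covariate, the female log2 fold change of *Igfbp7* was -0.04, that of *Igfbp5* -0.05 and that of *Irs1* -0.0048. Those of *Igf1r* (0.17), *Irs2* (0.16), *Igfbp4* (0.19) and *Igfbp6* (0.17) turned positive, and that of *Igf1* went from -0.48 to -0.23 (unadjusted p = 0.416 in this edgeR fit). *Igfbp3* went from -0.75 to -0.59 (unadjusted p = 0.0162 and adjusted p = 0.775 in this edgeR fit). The part of the receptor share in these differences was not tested beyond this covariate.

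**Figure D3:**
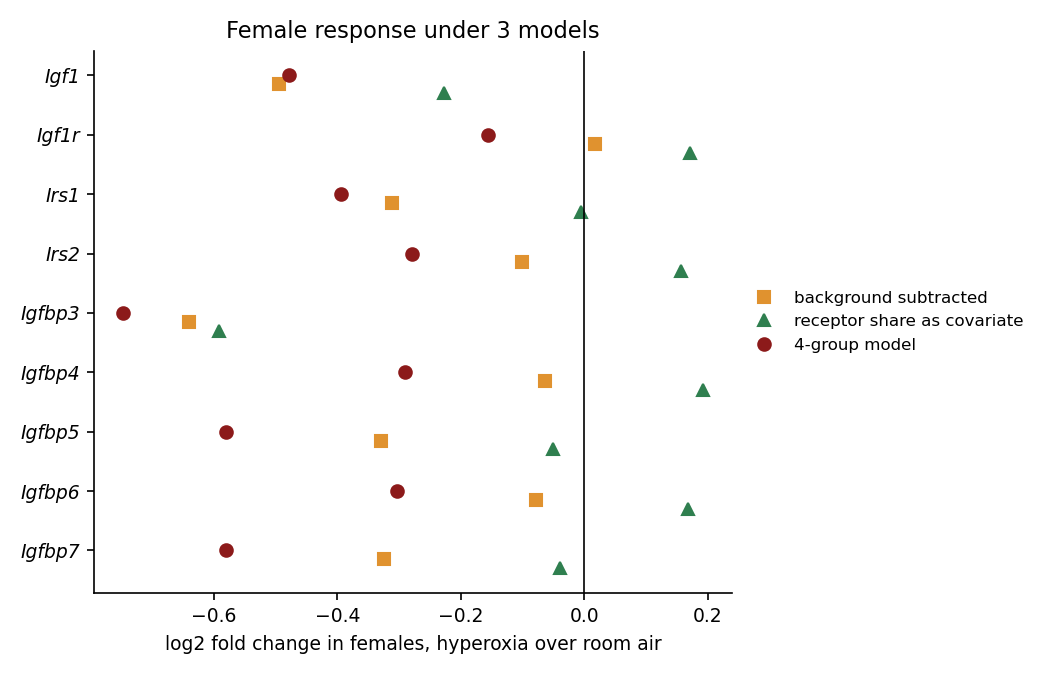
Female log2 fold change of each gene (horizontal axis) in the 4-group model (circles), after subtraction of background reads (squares) and with the receptor share as covariate (triangles). *Igfbp3* stays at or below -0.59 in all 3, while *Igf1r* goes from -0.16 to 0.17.

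**Figure D4:**
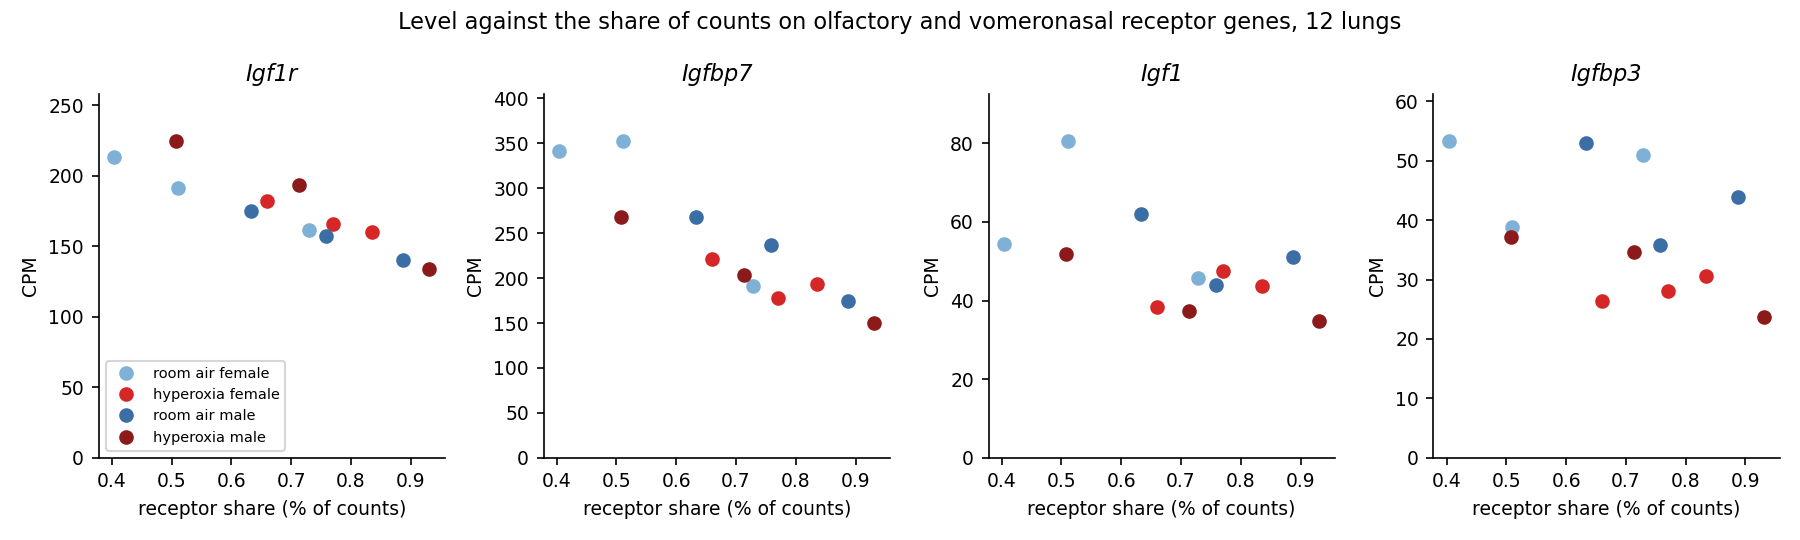
Level in CPM (vertical axis, from 0) against the receptor share in percent of counts (horizontal axis) for *Igf1r*, *Igfbp7*, *Igf1* and *Igfbp3* in the 12 lungs, coloured by group. *Igf1r* runs from 225 CPM at a share of 0.508% to 134 CPM at 0.931%. The hyperoxia females of *Igfbp3* lie under the room air females, at mostly higher shares (0.660% to 0.835% against 0.404% to 0.729%).

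In males, 5 of the 9 genes had a negative log2 fold change, with a median of -0.01, the same as over all genes tested. None of the 9 was called, as for all genes (0%), where 1237 had an unadjusted p under 0.05 in edgeR and DESeq2 also called 0. *Igfbp3* had a log2 fold change of -0.47 (SE 0.18, unadjusted p = 0.0151 in edgeR; -0.31 without room air male 4 and -0.29 without hyperoxia male 2), and its groups overlapped, as did those of the other 8 (3.89% of all genes did not overlap with hyperoxia lower). *Irs2* was on the other side, with 52.1, 72.3 and 64.7 CPM in room air and 107, 61.5 and 92.2 CPM in hyperoxia, a log2 fold change of 0.46 (SE 0.22, unadjusted p = 0.0465 in edgeR). Its highest lung, hyperoxia male 1, had a low receptor share of 0.508%, and without it the log2 fold change was 0.29. With the receptor share as covariate, male *Irs2* stood at 0.35 (unadjusted p = 0.000576, adjusted p = 0.240 in edgeR). With background subtracted it stood at 0.46 (unadjusted p = 0.0180 in edgeR), and neither fit called it. With 1 RUVr factor its adjusted p was 0.0101 in edgeR, at a fold change under 1.5. *Igfbp5* was highest among males in room air male 1, at 331 CPM, a lung with 1880 CPM over 8 skeletal muscle genes where the others had 90.6 to 131 CPM. Without that lung, the male log2 fold change of *Igfbp5* went from -0.28 to -0.04. For *Igf1*, *Igf1r*, *Irs1*, *Igfbp4*, *Igfbp6* and *Igfbp7* the male values lay between -0.34 and 0.23. With both sexes together no gene of the 9 separated completely by exposure, a pattern with hyperoxia lower in 0.120% of all genes tested.

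The second question was whether the response differed between the sexes. The female minus male difference in log2 fold change was negative for all 9 genes, from -0.74 to -0.14, with a median of -0.38 against 0.12 over all genes tested. The receptor share as covariate turned the difference positive for 6 of the 9, to 0.39 for *Igfbp5*, 0.35 for *Igfbp4* (unadjusted p = 0.024, adjusted p = 1.0 in edgeR), 0.22 for *Igfbp7*, 0.18 for *Igfbp6*, 0.18 for *Igf1* and 0.04 for *Igf1r*. Subtraction of background reads turned it positive for 3, *Igf1*, *Igfbp4* and *Igfbp5*, at 0.01 to 0.07, and left the other 6 negative. None was called, and 0% of all genes were (3875 at an unadjusted p under 0.05 in edgeR, and 0 called by DESeq2). *Irs2* had the largest difference, -0.74 (SE 0.31, unadjusted p = 0.0254, adjusted p = 0.578 in edgeR), from -0.28 in females and 0.46 in males. One RUVr factor brought its adjusted p to 0.0001 (log2 difference -0.70), and the receptor share as covariate brought the difference to -0.19. Without room air female 5, the highest female lung for *Irs2*, the female value was -0.01 and the difference -0.48. With 1 RUVr factor the adjusted p also passed 0.05, at a fold under 1.5, for *Irs1* (0.00146), *Igfbp7* (0.0134) and *Igf1r* (0.0137). For *Igfbp3* the difference was -0.28 (SE 0.26, unadjusted p = 0.291 in edgeR). With the receptor share as covariate it was -0.08, from -0.59 in females and -0.51 in males. With background subtracted it was -0.04, from -0.64 in females and -0.60 in males.

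Between females and males, over both exposures, the 9 genes differed by -0.03 to 0.28 on the log2 scale, and 0 were called (1.22% of all genes tested were). None had an unadjusted p under 0.05, and the largest differences were *Igfbp5* at 0.28 (SE 0.21) and *Igfbp6* at 0.27 (SE 0.13, adjusted p = 0.754 in edgeR). With 1 RUVr factor *Igfbp6* had an adjusted p of 0.0353 in edgeR at a log2 difference of 0.26, a fold under 1.5.

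The wider pathway was read from a list of 47 further genes, all of which passed the filter on low counts. After hyperoxia in both sexes together, 0 of the 47 were called, 35 were lower and 12 higher, and 1 had an unadjusted p under 0.05. Their median log2 fold change was -0.10 against 0.03 over all genes. In females the median was -0.29 (40 of 47 lower, 0 called) and in males 0.10 (8 of 47 lower, 0 called), beside 0.11 and -0.01 over all genes. The medians differed between models. The receptor share as covariate brought them to -0.0089 in females (27 of 47 lower) and 0.03 in males (19 of 47 lower), and to -0.0048 over both sexes (25 of 47 lower). Subtraction of background reads left -0.18 in females (40 of 47 lower), 0.05 in males (14 of 47 lower) and -0.06 over both sexes (31 of 47 lower). In room air females 2 and 5, the lungs with a low receptor share, *Akt1* stood at 107 and 115 CPM, against 83.4 CPM in room air female 6.

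Proteases and their inhibitors that free or protect IGFs numbered 6, with a median pooled log2 fold change of 0.06. *Htra1*, a secreted serine protease, was lower, with 25.1 ± 3.81 CPM in room air and 21.0 ± 1.70 CPM in hyperoxia (SD, n = 6 each), a log2 fold change of -0.25 (unadjusted p = 0.0295, adjusted p = 0.927 in edgeR). *Pappa2*, which cleaves IGFBP3 and IGFBP5, stood at 0.21. Among 16 PI3K, AKT and mTOR genes, 15 were lower in the pooled comparison. They ran from -0.21 in *Akt1*, the kinase that carries the signal inwards, to 0.04 in *Pik3r2*, a regulatory subunit of PI3K. By sex, all 16 were lower in females (median -0.32) and 14 were higher in males (median 0.09). The 3 FOXO factors lay between -0.15 (*Foxo4*) and 0.05 (*Foxo1*) in the pooled comparison. By sex, all 3 were lower in females (-0.45 to -0.24) and higher in males (0.15 to 0.35). For the female minus male difference, 2 of the 3 had an unadjusted p under 0.05 in edgeR and 0 were called.

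Of 8 docking and adaptor proteins and inhibitors, 7 were lower in the pooled comparison, with *Ptpn1*, a phosphatase of the receptor, at -0.21 and *Irs4* at 0.16. By sex, 7 were lower in females (median -0.33) and 7 higher in males (median 0.06). The 6 genes of the growth hormone axis were all lower in the pooled comparison, and *Cish*, a STAT5 target that damps the signal, was lowest at -0.18. By sex, all 6 were lower in females (median -0.36) and all 6 higher in males (median 0.12). Other ligands, receptors and binding proteins (8 genes) ran in the pooled comparison from -0.24 in *Igfbp2* to 0.20 in *Insrr*, an orphan receptor of the insulin family. Of these, *Igfbp2* had 25.7 ± 8.04 CPM in room air and 21.6 ± 1.32 CPM in hyperoxia.

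**Figure D5:**
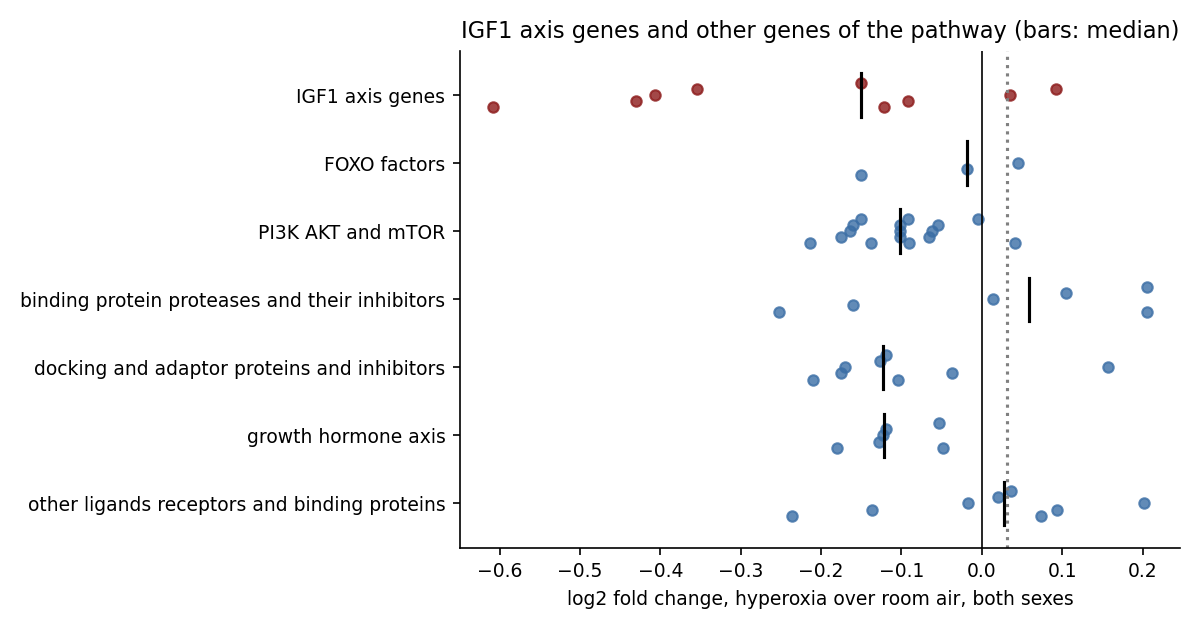
Pooled log2 fold change of hyperoxia over room air (horizontal axis) for the 9 IGF1 axis genes and for 47 other genes in 6 groups of the pathway, each point a gene, with the median as a bar and the median of all genes dotted. *Igfbp3* at -0.61 lies farthest from 0, and the other groups span -0.25 to 0.21.

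Of the 47, 1 was called between the sexes, where 1.22% of all genes tested were. *Irs4*, an X-linked docking protein, stood at 8.91 to 12.1 CPM in females and 3.22 to 7.51 CPM in males, a log2 difference of 1.05 (SE 0.16, adjusted p = 0.000145 in edgeR). The background expected for its exon length equals 50.9% to 83.9% of its reads in the 6 females and 119% to 223% in the 6 males. Its reads thus exceeded the expected background in every female and in no male, on 121 to 164 counts per female lung and 37 to 83 per male lung.

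Markers of other cells were set beside the lower *Igfbp3*. Red cell genes (5 of 5 lower, 3 called) summed to 5120 to 7880 CPM in room air and 1250 to 4650 CPM in hyperoxia, without overlap. Fibroblast genes (7 of 9 lower, 0 called) summed to 1800 to 3050 CPM and 1130 to 2150 CPM, and endothelial genes (8 of 9 lower, 0 called) to 1370 to 2590 CPM and 1210 to 2350 CPM. Epithelial genes (11 of 11 lower, 0 called) and smooth muscle and myofibroblast genes (5 of 5 lower, 0 called) also overlapped between exposures over both sexes. In females, where *Igfbp3* did not overlap, 4 lists did not either, a pattern that 6.42% of single genes tested showed with hyperoxia lower. These included red cells and epithelium (11400 to 22000 CPM in room air and 10300 to 11200 CPM in hyperoxia). The others were cardiac muscle (182 to 207 CPM and 100 to 133 CPM) and smooth muscle and myofibroblasts (172 to 201 CPM and 136 to 166 CPM). Epithelial sums in room air females were 22000, 15300 and 11400 CPM at receptor shares of 0.404%, 0.510% and 0.729%. The part of these lists in the result was not tested. In bulk lung, fewer cells of a type and less RNA per cell cannot be told apart.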

How the data were processed

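RNA-Seq counts of whole lungs from 12 *miR-30a*-/- mice were analysed. The authors trimmed reads (Trim Galore), mapped them to mm10 (STAR) and deposited raw read counts per gene (featureCounts). Versions and the strand setting are not given in the sources used here. The labels and the paper name different library kits, both total RNA and stranded. No value column was left without a sample (0).

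Counts of 55487 genes were fitted with edgeR 4.0.16 (R 4.3.3): robust quasi-likelihood, 4 groups, upper-quartile factors, 45828 genes after filterByExpr. Contrasts were hyperoxia against room air pooled and per sex, the interaction, and females against males. CPM used the normalized library sizes. Depth had a median of 11942546 counts, and intervals of counting error were not needed at 149 counts or more. The main model was checked on simulated counts. Positions and exon lengths (mm10) came from GENCODE mouse release 21. Background was taken as the median density of reads per exon kilobase over the receptor genes. UTRs were compared with those of 0.8 to 1.25 times their length.

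The alternatives were TMM, DESeq2 1.42.0, no filter, 10 counts in every library, 1 RUVr factor (the paper's number is not given), the log2 receptor share as covariate, background subtracted, the adjusted p alone, an additive model, the 6 libraries compared alone, animal number as a block in females, and each lung left out. The 9 genes and the lists were chosen with earlier results of these data known. Of the 47 pathway genes, those called and the largest rise and fall of each group in the pooled comparison are named. Figures were drawn with matplotlib 3.10.9.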

Additional observations from a re-analysis of the deposited data

How the results depend on the processing

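The count of called genes among the 9 went from 0 to 1 in the pooled comparison with 1 RUVr factor and with DESeq2 (*Igfbp3* in both), and in females with 1 RUVr factor, DESeq2 and the 6 female libraries alone (*Igfbp3*). The interaction had 1 called gene of the 9 (*Irs2*) with 1 RUVr factor. Leaving out single lungs gave 0 to 1 called genes of the 9 in the pooled comparison (1 without hyperoxia male 1) and 0 to 1 in females (1 without hyperoxia male 2). In males and between the sexes the count stayed at 0 under the alternatives run.

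Over all genes the pooled count of 19 became 92 with 1 RUVr factor, 10 with background subtracted and 40 with DESeq2, and 3 to 37 with a lung left out. The female count of 1 became 0 with TMM and with background subtracted, 8 without a filter, 22 with the receptor share as covariate, 80 on the 6 libraries alone, 89 with DESeq2, 451 with animal number as a block and 1898 with 1 RUVr factor, and 0 to 206 with a lung left out (206 without room air female 6). The male count of 0 became 2 on the 6 libraries alone, 6 with the covariate and 16 with 1 RUVr factor, and 0 to 1 with a lung left out. The interaction count of 0 became 2102 with 1 RUVr factor. The sex count of 559 became 266 with 10 counts in every library, 977 with the covariate, 1004 without a filter and 1006 with 1 RUVr factor. The causes were not tested.

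Signs turned for several genes, some with a value larger than its standard error (*Igfbp6*, *Igfbp4* and *Irs2* in females, and the female minus male difference of *Igf1r*, *Igfbp6* and *Igfbp7*). With the receptor share as covariate, the pooled log2 fold changes became 0.0156 for *Irs1*, 0.0174 for *Igfbp4* and 0.0785 for *Igfbp6*. In females they became 0.172 for *Igf1r*, 0.157 for *Irs2*, 0.193 for *Igfbp4* and 0.169 for *Igfbp6*, and in males -0.012 for *Igfbp6*. The female minus male difference became 0.177 for *Igf1*, 0.0401 for *Igf1r*, 0.351 for *Igfbp4*, 0.392 for *Igfbp5*, 0.181 for *Igfbp6* and 0.223 for *Igfbp7*, and with background subtracted 0.011 for *Igf1*, 0.0406 for *Igfbp4* and 0.0694 for *Igfbp5*. With background subtracted, *Igf1r* in females became 0.0176 and *Irs4* in the pooled comparison -0.192. With DESeq2, pooled *Igf1r* became -0.00356 and *Pik3r2* -0.00198, and male *Igfbp4* became 0.0211, with 0.0021 under TMM and 0.0062 without a filter. With a lung left out, the pooled values ran from -0.0474 to 0.129 for *Igf1r*, -0.199 to 0.0636 for *Igfbp6*, -0.0738 to 0.149 for *Foxo1* and -0.0132 to 0.0929 for *Pik3r2*. *Igfbp6* ran from -0.524 to 0.0023 in females and from -0.0407 to 0.26 in males, where *Irs1* ran from -0.035 to 0.376, *Igfbp4* from -0.271 to 0.21 and *Igfbp7* from -0.353 to 0.0678. The female minus male difference ran from -0.318 to 0.119 for *Igf1*, -0.613 to 0.0777 for *Igfbp5* and -0.948 to -0.479 for *Irs2*. The cause was not tested.

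Animal numbers 2 and 5 occur in both female groups. Their deviations from the group means correlated at 0.0596 and -0.166 across genes, within the -0.256 to 0.226 of female pairs with different numbers. So few pairs cannot show whether a common number marks a shared litter or batch. With the number as a block, *Igfbp3* in females had a log2 fold change of -0.646 (adjusted p = 0.0666 in edgeR) and 0 of the 9 genes were called. With 3 lungs a group, the standard errors of the per-sex log2 fold changes of the 9 genes were 0.18 to 0.30, which limits the differences that could pass.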

Other observations

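The summed reads of the 5 binding protein genes were divided unequally. *Igfbp5* took 39.6% ± 6.91 of their summed reads in room air and 38.4% ± 3.20 in hyperoxia (SD, n = 6 lungs each). *Igfbp3* took 6.55% ± 1.89 in room air and 5.31% ± 0.767 in hyperoxia. Room air female 6 had the highest *Igfbp3* share, at 9.62%, and hyperoxia female 2 the lowest, at 4.06%, and the 2 exposures overlapped in both sexes. The share of *Igfbp6* was 3.03% ± 0.255 in room air (2.78% to 3.33%) and 3.64% ± 0.286 in hyperoxia (3.34% to 4.12%), without overlap over the 12 lungs, the highest room air lung at 3.332% and the lowest hyperoxia lung at 3.342%. *Igfbp4* took 15.4% ± 1.30 and 17.4% ± 1.32, and *Igfbp7* 35.5% ± 5.63 and 35.2% ± 1.52, both with overlap. The *Igfbp6* share was singled out after its values were seen. These shares were not tested.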
